A study of Arabidopsis thaliana with 27 samples.

Results

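The genes described here are 72 Arabidopsis genes whose mean level on 125 mM NaCl was at least 1 log2 unit (2-fold) above that of untreated seedlings, while their means on 50, 75 and 100 mM NaCl all stayed within 0.3 log2 units of it. They are 72 of 21509 genes with a usable signal. A gene was usable when in 1 group or more the scanner software marked all 3 of its spots as well above background, and a gene with several probes takes the probe with the highest mean over the 27 arrays. They were chosen by their values on the NaCl and ATS media arrays, so their differences between NaCl and ATS media are given as a description, with no test. The filter for a usable signal counted the sorbitol groups too. GolS10, AT4G35150, AT2G29150, AT3G63040 and ARF22 passed it only through sorbitol groups, so their sorbitol levels were in part fixed by the filter. The working name of the set, genes raised only at 125 mM NaCl, was checked against the sorbitol arrays, which the rule's differences did not use. It did not hold for most of them: their median was 1.39 log2 units above ATS media on 100 mM sorbitol and 1.46 above it on 250 mM sorbitol, against 1.49 on 125 mM NaCl, and on 150 and 200 mM sorbitol it was high on 1 array of each group and near the ATS level on the other 2. They are therefore called here by their rule, the 125 mM NaCl set.

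The study grew wild-type Col-0 seedlings, with no transgene or mutation, from seed for 2 weeks on plates and hybridised RNA of whole seedlings, shoots and roots together, to 1-colour 4 x 44k expression arrays. The medium was *Arabidopsis thaliana* salt (ATS) media that had NaCl added to 50, 75, 100 or 125 mM, sorbitol added to 100, 150, 200 or 250 mM, or neither of them (ATS media). All groups therefore shared the medium, the age and the genotype. The NaCl and sorbitol doses form 4 iso-osmolar pairs (50 with 100, 75 with 150, 100 with 200 and 125 with 250 mM), so that a response to the ions can be set beside a response to osmolarity. Each of the 9 groups had 3 arrays, 27 in all, and nothing in the labels says whether the 3 came from separate plates, so the p-values measure only the spread between these samples. In whole seedlings, fewer cells of a type and less RNA per cell cannot be told apart.

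Salt stress in plants has an osmotic side, in which the root meets a lower water potential, and an ionic side, in which sodium and chloride build up in the tissue. The osmotic side acts largely through the hormone abscisic acid, which turns on genes for protective proteins such as dehydrins, and sorbitol, which the roots hardly take up, imposes it without the ions. Lipid enzymes that make phosphatidic acid, alternative oxidases that let mitochondrial electron flow bypass part of the respiratory chain, and ubiquitin-dependent protein turnover are among the processes known to respond to salt and drought.

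The arrays were printed 4 to a slide and lay on 7 slides (S1 to S7), as the array identifiers show. The first array of ATS media and of 50, 75 and 100 mM NaCl shared slide S1. Slide S2 held the first array of 125 mM NaCl and of 100, 150 and 200 mM sorbitol. The other arrays lay in pairs, ATS media and 50 mM NaCl on S3, 75 and 100 mM NaCl on S4, 125 mM NaCl and 100 mM sorbitol on S5, and 150 and 200 mM sorbitol on S6, with all 3 arrays of 250 mM sorbitol alone on S7. No array of 125 mM NaCl shared a slide with ATS media or with a lower NaCl dose, so for the contrast that chose the 72 genes the dose and the slide cannot be told apart. The same holds for every sorbitol dose against ATS media. The median spot background was 20 to 27 intensity units per array over the 7 slides, 70.1 to 80.8% of probes were well above background, no spot was saturated, and the highest correlation between 2 arrays was 0.9965, so no array was a copy of another. Photosynthetic shoot markers (17 of 17) and root markers (12 of 12) were all well above background on at least 1 array of every group.

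The level of each gene is its log2 normalised intensity. On ATS media and on 50, 75 and 100 mM NaCl the median difference of the 72 genes from the ATS mean ran between -0.0413 and 0.0575 on single arrays, and at most 1 of the 72 genes was 1 or more above the ATS mean on any of these 12 arrays. On 125 mM NaCl the medians of the 3 arrays were 1.51, 1.46 and 1.44, with 69, 65 and 69 genes at 1 or more. The median of the 72 group differences at 125 mM NaCl was 1.49 (2.81-fold), from 1.00 to 4.52. The rule fixed this rise, and 7.93% of all genes tested were at least 1 higher on 125 mM NaCl than on ATS media. In 71 of the 72 genes every 125 mM NaCl array lay above every ATS array, and in 62 all 3 arrays were at least 1 above the ATS mean. The exception was AT3G22520.

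**Figure D1:**
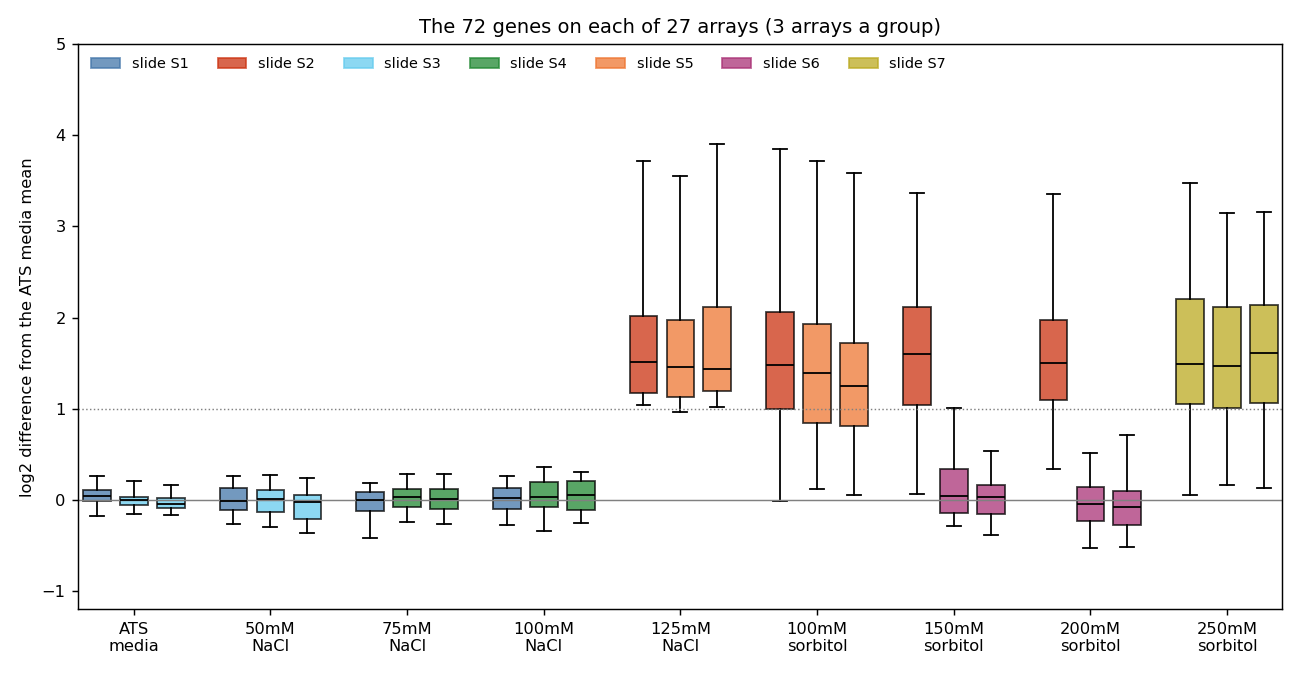
Difference of the 72 genes from their ATS media mean (log2) on each of the 27 arrays, with boxes from the lower to the upper quartile, a line at the median, whiskers from the 5th to the 95th percentile and colours for the slide. The boxes lie near 0 on slides S1, S3, S4 and S6 and near 1.5 on S2, S5 and S7, so that the first array of 150 mM and of 200 mM sorbitol stands apart from the other 2 of its own group.

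The sorbitol arrays split by slide and not by dose. On 100 mM sorbitol the medians were 1.48, 1.39 and 1.24 on the 3 arrays (S2, S5 and S5), and 54, 50 and 47 of the 72 genes were at least 1 above the ATS mean. The 150 mM sorbitol arrays gave medians of 1.61 on S2 but 0.0404 and 0.0375 on S6, with 54, 6 and 2 genes at 1 or more. On 200 mM sorbitol they were 1.51 on S2 and -0.0444 and -0.0806 on S6, with 57, 2 and 3 genes. The 250 mM sorbitol arrays on S7 gave 1.49, 1.46 and 1.61, with 55, 54 and 55 genes. Each array of S2, S5 and S7 thus had a median of 1.24 or more, whatever its treatment, and each array of S1, S3, S4 and S6 one of 0.0575 or less. Over all genes tested the median difference from ATS media lay between -0.0329 and 0.0405 on every array, and the percentage of genes at 1 or more on the 150 and 200 mM sorbitol arrays was 5.02 to 5.18 on S2 and 4.34 to 4.81 on S6.

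Slides S2 and S6 both held 150 and 200 mM sorbitol, and the rule's differences used none of these 6 arrays, although the first 125 mM NaCl array lay on S2 too. The filter for a usable signal did use them. Within each dose the S2 array was compared with the 2 S6 arrays. This comparison was added after the split was seen. Only slides S2 and S6 enter it, so its p-values measure the spread between arrays and not between slides. The median over the 72 genes was 1.59 log2 units higher on S2 than on S6 (3.02-fold), 1.54 at 150 mM and 1.64 at 200 mM, against -0.036 over all genes tested. It was -0.0417 over the other 1634 genes that were at least 1 higher on 125 mM NaCl than on ATS media but did not meet the rule at the lower doses. Of the 72 genes 52 (72.2%) were at least 1 higher on S2, against a background of 1.7% of all genes tested and 8.75% (143) of the other 1634, and 50 of the 72 were so at both doses. In limma, with the dose as a term and Benjamini-Hochberg adjustment over all genes, 49 of the 72 genes were higher on S2 at an adjusted p under 0.01 (background 2.54%) and 0 were lower (background 2.07%). At an unadjusted p under 0.05, 66 were higher and 1 was lower, against 3829 and 6160 of the 21509 genes tested. Both S2 arrays lay above all 4 S6 arrays in 62 genes (background 13.2%) and below them in 0 (background 18.5%). Leaving out 1 of the 6 arrays left 17 to 42 calls, 18 without the first 150 mM array, 28 without the third, 17 without the first 200 mM array, 21 without its second and 17 without the third 200 mM array.

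The split was not limited to dim probes. In 48 genes no spot on any of the 27 arrays fell short of the mark for well above background, and these gave 36 at 1 or more and 39 calls for S2 over S6, and their median was 1.52 between S2 and S6, 1.34 on 125 mM NaCl, 1.27 on 100 mM sorbitol and 1.35 on 250 mM sorbitol. The other values that differ between the 2 slides are small, with a median background of 23 to 25 on S2 and 24 to 26 on S6, and 77.4 to 80.8% of probes well above background on S2 and 75.3 to 78.9% on S6. Their part in the difference was not tested. At these doses the S2 arrays are replicate 1 and the S6 arrays replicates 2 and 3, so the slide and the replicate cannot be told apart there. Among ATS media and 50, 75 and 100 mM NaCl, where replicate 1 also lay on a slide of its own (S1), the medians of replicate 1 were -0.00734 to 0.0404 and those of replicates 2 and 3 -0.0413 to 0.0575. The 100 mM sorbitol arrays were high on S2 and on S5 alike.

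Set against ATS media, 52 of the 72 genes rose on 100 mM sorbitol in limma (adjusted p under 0.01, background 26.6%) and 0 fell (background 28.2%). At an unadjusted p under 0.05, 63 rose and 0 fell, against 7147 and 7501 of the 21509 genes tested. On 150 mM sorbitol 5 rose (background 27%) and 2 fell (22.8%), and on 200 mM sorbitol 8 rose (28.9%) and 0 fell (23.4%). At an unadjusted p under 0.05, 0 fell on 200 mM too, against 6268 of the 21509 genes tested. On 250 mM sorbitol 56 rose (36.1%) and 2 fell (30.5%). These comparisons share the ATS arrays with the rule. No sorbitol array shared a slide with ATS media, so in each of them the treatment and the slide cannot be told apart. The fit pools the spread over all 9 groups, so the split by slide inside 150 and 200 mM sorbitol widened the standard errors of these genes (median SE of the 72 for 100 mM sorbitol against ATS media 0.373, and 0.0916 with only the arrays of those 2 groups in the fit), and a miss of the threshold by a member that splits says little. With only the 2 groups compared in the fit, an alternative added after seeing the data, 59 rose on 100 mM sorbitol (background 23.5%) and 65 on 250 mM (37.3%), while 3 rose on 150 mM (15.9%) and 3 on 200 mM (18%). The counts at 150 and 200 mM hold 2 kinds of array within 1 group. The median over the 72 genes was 1.39 on 100 mM (2.62-fold), 0.533 on 150 mM, 0.45 on 200 mM and 1.46 on 250 mM sorbitol (2.75-fold). On 100 mM sorbitol 52 genes were at least 1 higher than on ATS media (3.64% of all genes tested), and on 250 mM sorbitol 56 were (6.1%). The methods of the study pool the 12 sorbitol arrays in a Mann-Whitney test against the 3 ATS arrays. All 12 lay above the ATS arrays in 8 of the 72 genes (background 16.6%) and below them in 1 (background 13.7%), and the exact two-sided p for such a gene is 0.0044, the smallest the design can give. The 1 gene below, AT4G08875, was not well above background in either group. The counts at 150 and 200 mM turned on single arrays. Without the first 150 mM sorbitol array 3 genes rose, and without the third 10 did, and for 200 mM the count was 4 without its own first array and 5 without the second or the third ATS array. With the slide as a random block 21 genes rose on 150 mM sorbitol.

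Slides S2 and S5 held both 125 mM NaCl and 100 mM sorbitol, so these treatments could be compared within a slide, although the doses are not iso-osmolar. The 125 mM NaCl arrays chose the genes, and the values are given with no test. The median over the 72 genes was 0.0422 log2 units higher on 125 mM NaCl on S2 and 0.161 higher on S5, 0.111 in the mean of both slides (1.08-fold), and 40 of the 72 genes differed by less than 0.3 in that mean. The other 1634 genes that were at least 1 higher on 125 mM NaCl than on ATS media had a median of 1.09 in the same comparison. Of the set 6 genes (8.33%) were at least 1 higher on 125 mM NaCl on both slides, against 4.88% of all genes tested and 50% (817) of the other 1634. Against its iso-osmolar partner, 250 mM sorbitol, the median of the set on 125 mM NaCl was 0.0532 higher, from -1.71 to 3.14, with no slide in common.

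**Figure D2:**
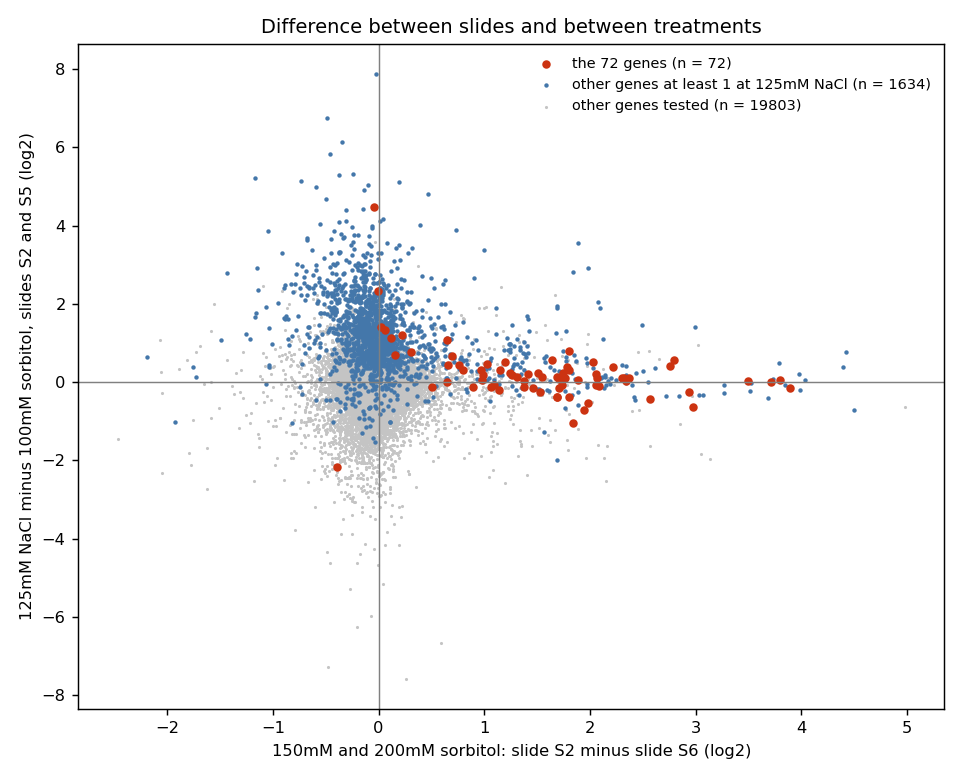
Each point is a gene, with the difference between slides S2 and S6 within 150 and 200 mM sorbitol on the x axis (log2) and 125 mM NaCl minus 100 mM sorbitol on the slides that hold both on the y axis (log2), for the 72 genes of the set, the other 1634 genes at least 1 higher on 125 mM NaCl than on ATS media, and all other genes tested. Most of the 72 lie to the right near 0 in height, with a median of 1.59 across and 0.111 up, while the 1634 lie near 0 across with a median of 1.09 up.

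Of the 72 genes 30 have a symbol in the RefSeq annotation, all 72 are protein coding, and the other 42 are given by locus number with no role. The genes below are ordered by role, a grouping made with their values known. No probe, promoter or protein sequence was read for them.

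Among genes well above background on all 3 ATS arrays, AT2G21430 was the largest rise, with log2 levels of 14.66, 14.49 and 14.57 on 125 mM NaCl, against 11.02, 10.95 and 10.86 on ATS media. It had 14.79, 14.55 and 14.28 on 100 mM sorbitol. The first arrays of 150 and 200 mM sorbitol had 14.65 and 14.44, and the others 11.05, 11.02, 10.71 and 10.56. On 250 mM sorbitol it had 14.56, 14.50 and 14.57. Its sorbitol arrays fell into a high and a low level with nothing between them, and slides S2 and S6 differed by 3.71 (SE 0.063, limma adjusted p = 0.0004) within 1 dose. Its 250 and 100 mM sorbitol means differed by 0.00.

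Ubiquitin and its relatives tag proteins for turnover or for other fates, and 4 members belong to that system. UBQ12, a polyubiquitin gene, had 8.19, 8.21 and 8.15 on 125 mM NaCl, against 5.59, 5.45 and 5.77 on ATS media, where 2 of the 3 arrays were well above background. It had 8.23, 8.11 and 8.10 on 100 mM sorbitol and 8.51, 8.52 and 8.45 on 250 mM. The first arrays of 150 and 200 mM sorbitol had 8.39 and 8.12, against 6.06, 5.94, 5.85 and 5.80 on the S6 arrays. It was 2.34 higher on S2 than on S6 (SE 0.049, limma adjusted p = 0.0004) and rose by 2.54 on 100 mM sorbitol (SE 0.505, adjusted p = 0.0002). The ubiquitin-conjugating enzyme UBC31 was 1.95 higher on 125 mM NaCl than on ATS media and 1.74 higher on S2 than on S6 (SE 0.044, adjusted p = 0.00046). UBP11, a protease that removes ubiquitin, was 1.099 higher on 125 mM NaCl and 1.06 higher on S2 (SE 0.028, adjusted p = 0.00048), and RUB3, a ubiquitin-like modifier, 1.04 and 0.98 (SE 0.081, adjusted p = 0.0062). In all 4 the S2 arrays of 150 and 200 mM sorbitol lay above the S6 arrays, and 125 mM NaCl and 100 mM sorbitol differed by -0.13 to 0.22 in the mean of the slides they shared (-0.20 to 0.37 on single slides).

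**Figure D3:**
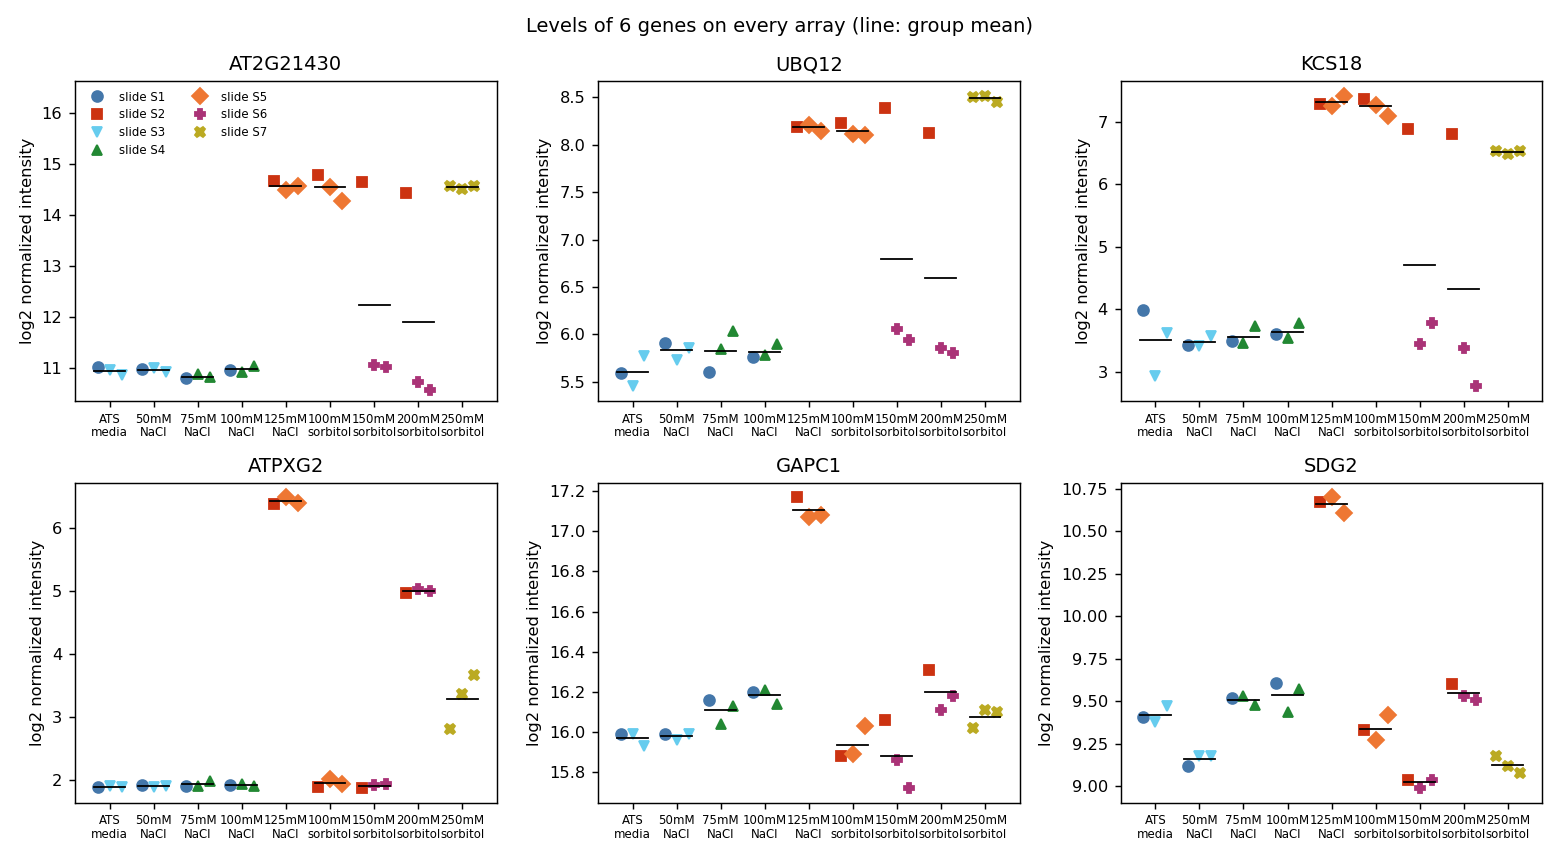
Log2 level of AT2G21430, UBQ12, KCS18, ATPXG2, GAPC1 and SDG2 on each array, with colours for the slide and a line at each group mean. The first 3 are high on every S2, S5 and S7 array. ATPXG2 is high on 125 mM NaCl, on 200 mM sorbitol and less so on 250 mM sorbitol, while GAPC1 and SDG2 are highest on 125 mM NaCl and at 100 mM sorbitol lie near the ATS level on the same slides.

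A further 5 members act on lipids. KCS18 is the elongase that builds the very-long-chain fatty acids of seed oil. It had 7.29, 7.25 and 7.42 on 125 mM NaCl, against 3.99, 2.93 and 3.63 on ATS media, where it was not well above background, so that it was at least 5.29-fold higher on 125 mM NaCl. Such bounds divide the mean of the bright group by the lowest signal that still counted as well above background on the dim group's arrays, or by the gene's own signal there if higher. It had 7.37, 7.27 and 7.10 on 100 mM sorbitol (at least 5.03-fold over ATS media) and 6.54, 6.49 and 6.54 on 250 mM sorbitol (at least 3.05-fold). The first arrays of 150 and 200 mM sorbitol had 6.89 and 6.80, and the S6 arrays, 1 of 4 well above background, 3.45, 3.79, 3.39 and 2.77, a difference of 3.49 (SE 0.23, limma adjusted p = 0.004). PLDALPHA2, a phospholipase D, and DGK6, a diacylglycerol kinase, both make phosphatidic acid. PLDALPHA2 had 10.97, 10.62 and 10.93 on 125 mM NaCl, against 9.63, 9.38 and 9.54 on ATS media, and more on 100 mM sorbitol, with 11.39, 11.22 and 10.98. It was 0.37 lower on 125 mM NaCl than on 100 mM sorbitol on the shared slides and 1.69 higher on S2 than on S6 (SE 0.055, adjusted p = 0.00087). DGK6 was 1.49 higher on 125 mM NaCl than on ATS media and 1.77 higher on S2 than on S6, with an adjusted p of 0.011 that misses the threshold. Its other probe gave 0.02 between S2 and S6, where 2 of 2 and 3 of 4 arrays were well above background. ATSAC1B, of the SAC family of phosphoinositide phosphatases, was 1.99 higher on 125 mM NaCl and 2.57 higher on S2 (SE 0.046, adjusted p = 0.0004). The fifth, ATPXG2, behaved otherwise and is described further on.

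Among enzymes of other pathways, AOX1C, an alternative oxidase of mitochondria, had 8.15, 7.89 and 7.98 on 125 mM NaCl, against 6.36, 6.40 and 6.32 on ATS media. It had 7.91 and 7.55 on the S2 arrays of 150 and 200 mM sorbitol, against 6.29, 6.34, 6.34 and 6.30 on S6, a difference of 1.41 (SE 0.089, limma adjusted p = 0.0037). It rose on 100 mM sorbitol by 1.38 and on 250 mM by 1.71. TGG3, named in the annotation as a thioglucoside glucosidase, was 2.16 higher on 125 mM NaCl than on ATS media and 2.37 higher on S2 than on S6 (SE 0.1, adjusted p = 0.0014). The tetrapyrrole pathway gene hemb2 was 2.15 higher on 125 mM NaCl and 2.32 higher on S2 (SE 0.081, adjusted p = 0.001). The cytochrome P450 gene CYP71B38 was 1.47 and 1.71 higher in the same comparisons (SE of the second 0.09, adjusted p = 0.0024), while CYP705A32, not well above background on ATS media, was at least 1.29-fold higher on 125 mM NaCl and 0.80 higher on S2, with an adjusted p of 0.016. The selenium-binding protein gene SBP3 and GAPCP-2, which encodes a plastid glyceraldehyde-3-phosphate dehydrogenase, were the smaller cases, 1.13 and 1.07 higher on 125 mM NaCl, and on S2 they were 1.37 and 0.97 higher than on S6, both past the threshold. GolS10, named for the galactinol synthases that start the synthesis of raffinose sugars, was not well above background on any ATS or 125 mM NaCl array, so no fold is given for it. The same holds for AT4G35150 and AT2G29150.

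Regulators were few. WRKY74, a transcription factor, had 10.31, 10.26 and 10.27 on 125 mM NaCl, against 8.80, 8.78 and 8.76 on ATS media. On 100 mM sorbitol it had 10.06, 10.00 and 9.86, and on 250 mM sorbitol 9.96, 9.83 and 9.89. The first arrays of 150 and 200 mM sorbitol had 10.03 and 10.06, and the S6 arrays 8.22, 8.26, 8.25 and 8.26, all below the ATS arrays. Between S2 and S6 it differed by 1.799 (SE 0.026, adjusted p = 0.0004). Every array of 100 and 250 mM sorbitol lay above every ATS array. In the fit over all groups, where the split widens its SE to 0.385, its rises of 1.19 on 100 mM sorbitol (adjusted p = 0.01035) and 1.11 on 250 mM (adjusted p = 0.01348) missed the threshold, and with only the 2 groups compared in the fit they passed it (SE 0.053, adjusted p = 2.9e-05 and SE 0.036, adjusted p = 2.9e-06). MIF3, a mini zinc finger protein, was 1.29 higher on 125 mM NaCl and 1.26 higher on S2 than on S6 (adjusted p = 0.0028), and the receptor kinase SERK5 1.22 and 0.76 (adjusted p = 0.00084). Their other probes did not repeat the slide difference, with -0.26 for MIF3 and 0.08 for SERK5. GRF12, one of the 14-3-3 proteins that bind phosphorylated partners, was not well above background on ATS media, and its difference of 1.69 between S2 and S6 missed the threshold (adjusted p = 0.022). ARF22, an auxin response factor, was not well above background on ATS media either, was well above it on 2 of the 3 arrays of 125 mM NaCl, and was called higher at all 4 sorbitol doses, with no fold given. It passed the filter for a usable signal only through 150 mM sorbitol. With only the 2 groups compared in the fit it was not called on 100 mM (adjusted p = 0.0355) or 250 mM (adjusted p = 0.0577).

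Plant defensins are small cysteine-rich peptides, and 3 members carry names of that family. LCR66 (also PDF2.4) had 13.06, 12.97 and 13.12 on 125 mM NaCl, against 12.07, 11.96 and 11.84 on ATS media. On 100 mM sorbitol it was higher still, with 13.42, 13.33 and 13.09, and S2 exceeded S6 by 1.53 (SE 0.067, limma adjusted p = 0.0015). LCR56 had 7.89, 7.24 and 7.44 on 125 mM NaCl, against 6.47, 6.47 and 6.13 on ATS media, and was 1.51 higher on S2 than on S6 (SE 0.074, adjusted p = 0.0021). LCR55, which was not well above background on ATS media and at least 1.06-fold higher on 125 mM NaCl, differed between S2 and S6 by 0.66 with an SE of 0.404 (adjusted p = 0.26). LCR56 and LCR55 are adjacent on chromosome 3, the only members within 3 genes of each other. The 3 were 11.5% of the 26 tested genes of this family, while the whole set was 72 of 21509 genes tested. The other genes of the 89 in the family had no usable signal, and no set test was run.

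RAB18, a dehydrin gene and a standard reporter of abscisic acid, was the 1 member in the list of abscisic acid and osmotic stress genes. It had 15.08, 14.93 and 15.04 on 125 mM NaCl, against 13.95, 13.95 and 14.00 on ATS media. On 50, 75 and 100 mM NaCl it had 13.80 to 14.41. It had 15.18, 14.92 and 14.80 on 100 mM sorbitol and 15.02, 14.90 and 14.96 on 250 mM, and it was called at all 4 sorbitol doses, with rises of 1.00, 0.60, 0.76 and 0.99. The S6 arrays of 150 and 200 mM sorbitol, with 14.30 to 14.48, lay above the ATS arrays and below the S2 arrays, with 14.91 and 15.23. The difference between S2 and S6 was 0.64 at this probe (SE 0.08, adjusted p = 0.011). Its other probes gave -0.27, -0.02 and 0.11.

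The 6 genes at least 1 higher on 125 mM NaCl than on 100 mM sorbitol on both shared slides were ATPXG2, GAPC1, SDG2, CYCD2;1, AT2G20619 and AT4G08875. ATPXG2, a peroxygenase of the caleosin family, had the largest difference of log2 values, against a signal too dim to give its size. It had 6.38, 6.48 and 6.39 on 125 mM NaCl, against 1.90, 1.91 and 1.90 on ATS media, where it was not well above background, and was at least 2.84-fold higher. On 100 and 150 mM sorbitol it had 1.88 to 2.02, on 200 mM sorbitol 4.97, 5.03 and 5.00, and on 250 mM sorbitol 2.82, 3.37 and 3.67. The 3 arrays of 200 mM sorbitol lay on 2 slides and differed by 0.06, and S2 minus S6 was -0.05. It was not well above background on 100 mM sorbitol either, and was at least 4.76-fold higher on 125 mM NaCl than there. Of the sorbitol doses only 200 mM gave a signal well above background.

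GAPC1, the cytosolic glyceraldehyde-3-phosphate dehydrogenase of glycolysis, had 17.17, 17.07 and 17.08 on 125 mM NaCl, against 15.99, 15.99 and 15.93 on ATS media. It had 15.88, 15.89 and 16.03 on 100 mM sorbitol, and over all 12 sorbitol arrays 15.72 to 16.31. Every 125 mM NaCl array lay above every other array, and the difference from 100 mM sorbitol was 1.29 on S2 and 1.11 on S5. These values are of the probe that stood for GAPC1. Its other probes were not level on sorbitol, with -1.53, -1.06 and 0.54 on 250 mM against ATS media. SDG2, a histone methyltransferase, averaged 10.66 ± 0.05 on 125 mM NaCl (SD, n = 3), against 9.41, 9.38 and 9.47 on ATS media, and had 9.33, 9.27 and 9.42 on 100 mM sorbitol. It fell on 150 mM sorbitol by 0.40 and on 250 mM by 0.29 (SE 0.043, limma adjusted p = 4.0e-06). On 50 mM NaCl, on slides shared with ATS media, it had 9.12, 9.18 and 9.18, also below the ATS arrays. CYCD2;1, a D-type cyclin that promotes entry into the cell cycle, had 11.04, 10.94 and 10.83 on 125 mM NaCl, against 9.93, 9.94 and 9.85 on ATS media, and 9.90, 9.84 and 9.76 on 100 mM sorbitol. It fell on 150 mM sorbitol by 0.28 and on 250 mM by 0.51 (SE 0.061, adjusted p = 2.2e-07), to 9.38, 9.41 and 9.40. Its 100 mM NaCl arrays, with 10.25, 10.23 and 10.03, already lay above all ATS arrays. Its 50 mM NaCl arrays, with 9.73, 9.66 and 9.65, lay below them.

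The 2 other genes were dim. AT2G20619 had 6.05, 5.87 and 6.44 on 125 mM NaCl, against 4.70, 4.41 and 4.66 on ATS media, where it was not well above background, and was at least 2.08-fold higher. It was called higher on 200 and 250 mM sorbitol too, with no fold given. AT4G08875 had 3.79, 4.41 and 4.64 on 125 mM NaCl and 1.82 to 1.85 on all ATS and sorbitol arrays, which is the bottom of the scale. It was at least 1.08-fold higher on 125 mM NaCl than on 100 mM sorbitol. For these 6 genes the difference between S2 and S6 ran from -0.05 to 0.22, and none of the 49 calls for S2 over S6 was theirs, the smallest adjusted p among them being 0.042 for GAPC1.

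Other members went their own way. LBD20, a transcription factor of the LOB domain family, had 6.74 and 6.40 on the first 2 arrays of 125 mM NaCl but 10.72 on the third, against 6.02, 6.17 and 5.91 on ATS media. AT3G22520 had 13.04 and 13.09 but 16.52 on the third, against 13.06, 13.03 and 13.00 on ATS media. Both rest on the third 125 mM NaCl array, since their first and second arrays were less than 1 above the ATS mean. AT3G63040 was higher on sorbitol than on 125 mM NaCl, with 5.85, 5.96 and 5.96 on 100 mM sorbitol and 4.80 to 5.93 on the other sorbitol arrays, against 3.70, 3.58 and 3.96 on 125 mM NaCl and 1.83 on each ATS array. It was well above background on 1 of the 3 arrays of 125 mM NaCl and on none of ATS media, was at least 2.01-fold higher on 100 mM sorbitol than on ATS media, and rose at all 4 sorbitol doses. It passed the filter for a usable signal only through the sorbitol groups, so these rises were in part fixed by the filter.

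The difference between 250 mM and 100 mM sorbitol over the 72 genes had a median of 0.0945 log2 units, in a comparison that used no array of the rule's differences. No slide held both doses, so the dose and the slide cannot be told apart here. In limma over all 9 groups 4 of the 72 genes were called higher on 250 mM (background 31.9%) and 4 lower (background 25.7%). These low counts do not show that the doses gave the same level, since the split inside 150 and 200 mM sorbitol enters the spread (median SE of the 72 genes 0.373). With only the 100 and 250 mM arrays in the fit (median SE 0.0859) 15 were higher (background 32.5%) and 8 lower (background 25.6%), among them 7 of the 8 called over all groups, the exception being AT1G34150. Of these 23 calls 11 higher and 8 lower were of genes well above background at both doses on every array. The falls of KCS18 (-0.72, SE 0.071, limma adjusted p = 0.00028) and AT1G10250 (-0.73, SE 0.128, adjusted p = 0.0032) and the rise of UBQ12 (0.35, SE 0.042, adjusted p = 0.00067) were called in that fit and not over all groups. In both fits AT2G20619 was higher (0.65, well above background on 2 of the 3 arrays of 100 mM sorbitol), and AT3G63040 (-0.46), CYCD2;1 (-0.44) and SDG2 (-0.22) were lower. AT4G35150 and GolS10 were not well above background on 100 mM sorbitol and were at least 1.17-fold and 1.46-fold higher on 250 mM. Both passed the filter for a usable signal only through 250 mM sorbitol, so these rises were in part fixed by the filter. ATPXG2, also called higher, was not well above background at either dose, and no fold is given. Over all groups 2 or 3 genes were called in each direction when 1 array of either dose was left out, and with the slide as a random block 1 gene was lower. Against ATS media AT2G21430 was 3.60 higher on 250 mM sorbitol and AT1G28640, well above background on 2 of the 3 ATS arrays, 3.62. Other genes named for their difference, AT3G49030 (at least 2.11-fold higher), AT3G63040 (at least 1.46-fold) and AT1G10250 (at least 1.18-fold), were not well above background on ATS media, so that their place in an order is not known. Besides the 2 falls and AT2G20619 the smallest changes called were AT4G39230 (0.85) and RUB3 (0.88).

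On the array 17 of the 72 genes had other probes, 22 in all, and 55 had 1 probe. Of the other probes 13, from 9 genes, stood well above background on each of the 3 arrays of 125 mM NaCl. In 3 of these 9 genes (MIF3, AT1G69030 and AT4G17660) the probe that stood for the gene was at least 1 higher on S2 than on S6, and their other probes gave -0.26, -0.04 and -0.11. Of the 13 probes 1, that of AT1G80180, was at least 1 higher on S2 (1.91, against 0.90 at the probe that stood for it). In 8 further genes whose own probe differed by 1 or more, no other probe was well above background on all 3 arrays of 125 mM NaCl. Among them, the other probe of DGK6 was well above background on 2 of 2 S2 and 3 of 4 S6 sorbitol arrays. It gave 0.02 between S2 and S6, against 1.77 at the probe that stood for the gene. From ATS media to 125 mM NaCl it gave -0.66, with 1 and 2 arrays well above background. That of AT5G35660 was so on 1 S2 and 2 S6 arrays, and the rest on none. On 125 mM NaCl 6 of the 13 probes were at least 1 higher than on ATS media, 3 of them with no ATS array well above background. The 3 other probes of GAPC1, all well above background on ATS media, were 2.45, 2.49 and 1.05 higher. The other probes of AT4G17660 and AT1G80180 were not well above background on ATS media and were at least 5.79-fold and 1.54-fold higher on 125 mM NaCl. That of MIF3, also not well above background on ATS media, was at least 1.04-fold higher. That of AT1G69030 was 0.40 higher, against 1.14 at the probe that stood for it. The GAPC1 probes differed between S2 and S6 by -0.15, 0.05 and 0.51. Against ATS media they gave -0.45, -0.34 and 0.31 on 100 mM sorbitol and -1.53, -1.06 and 0.54 on 250 mM. On the shared slides 125 mM NaCl was lower than 100 mM sorbitol at the other probes of AT1G80180 (-0.83) and RAB18. It was higher at the rest of the 13, with 0.44 for AT1G69030, 1.32 for SDG2 and 0.72 to 2.89 for GAPC1. Of RAB18 all 3 other probes were higher on 100 mM sorbitol than on 125 mM NaCl, by 2.13 to 2.22 on the shared slides, and the lower of the 2 that were measured on ATS media rose by 2.85 on 100 mM sorbitol, so that its probes disagree on which treatment is higher. The other probe of SDG2 was 0.88 higher on 125 mM NaCl and -0.41 between S2 and S6. That of SERK5, well above background on all ATS arrays, was 0.27 higher on 125 mM NaCl, against 1.22 at the probe that stood for it. Between S2 and S6 it gave 0.08, against 0.76. That of AT1G75420 gave 0.83 on 125 mM NaCl and -0.09 between S2 and S6, against 1.23 and 0.70. Both other probes of KCS18 were not above background on any 125 mM NaCl or ATS array, so its rise rests on 1 probe.

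**Figure D4:**
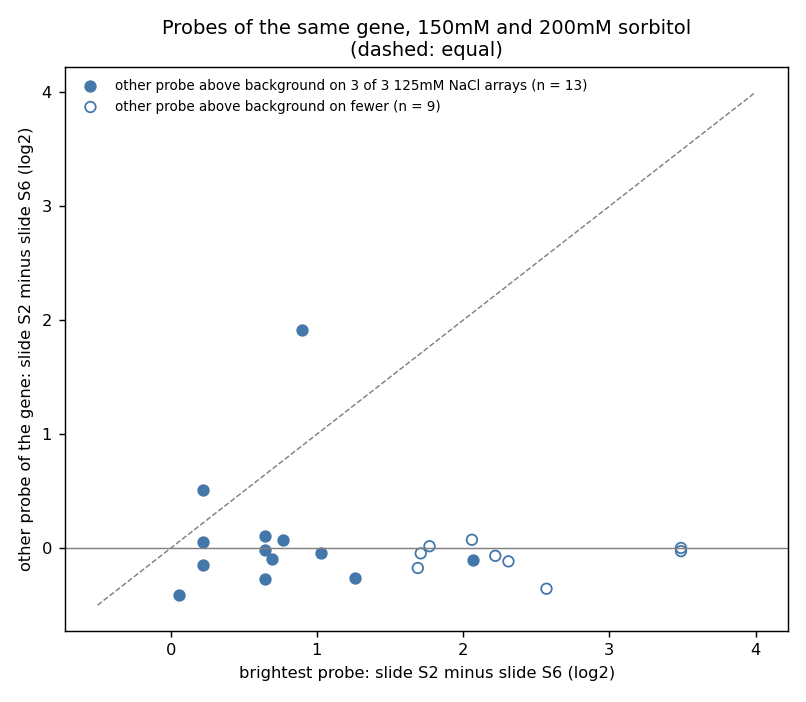
Difference between slides S2 and S6 within 150 and 200 mM sorbitol (log2) at the probe that stands for the gene (x axis) and at each of the 22 other probes of the same 17 genes (y axis), filled where the other probe was well above background on all 3 arrays of 125 mM NaCl (13 probes) and open otherwise (9 probes). Of the 13 filled points 1, that of AT1G80180, lies above 1 in height. The open points are of probes that fell short of the mark on 125 mM NaCl. Among them that of DGK6 (0.02 in height) was well above background on most of these S2 and S6 arrays.

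The lists of stress and hormone genes held few members. Of 16 functional lists, 2 marker lists and 25 families, 1 list and 4 families held 8 members, named above. Of the 40 abscisic acid and osmotic stress genes tested, RAB18 included, 32 rose (background 32.3%) and 2 fell (background 37.8%) on 125 mM NaCl (median 1.18, against -0.0311 over all genes tested). On 100 mM sorbitol 33 rose (background 26.6%) and 1 fell (28.2%), with a median of 0.957. Between S2 and S6 0 were higher and 0 lower in limma, with a median of -0.0025. With no adjustment of p, 8 were higher and 8 lower under 0.05, against 3829 and 6160 of the 21509 genes tested. The list of sodium, potassium and chloride transport genes (54 tested) held 0 members, with 21 genes higher (38.9%) and 24 lower (44.4%) on 125 mM NaCl (background 32.3% and 37.8%) and 1 higher on S2 than on S6.

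Cell type markers differed on 125 mM NaCl as well. Of 12 root markers 1 rose and 11 fell on 125 mM NaCl (background 32.3% and 37.8%), with a median of -1.25, although the summed intensity of the list was 169088 to 181957 units on 125 mM NaCl and 175459 to 179507 on ATS media, and each was well above background on at least 1 array of both groups. Between S2 and S6 1 root marker was lower. Of the 17 shoot markers 3 fell on 125 mM NaCl and the others were not called (median -0.0701), with sums of 4368410 to 4423741 units on 125 mM NaCl and 4640590 to 4661215 on ATS media. Of 25 seed maturation and storage genes 14 rose (background 32.3%) and 3 fell (background 37.8%) on 125 mM NaCl (median 0.844), while their summed intensity was 109759 to 116904 units on 125 mM NaCl, against 133857 to 136119 on ATS media, and 4 of the 25 on 125 mM NaCl and 17 on ATS media were well above background on no array. No seed gene was called between S2 and S6. In limma, with p not adjusted, 1 was higher and 10 were lower under 0.05, against 3829 and 6160 of the 21509 genes tested. The part of these markers in the values of the 72 genes was not tested.

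By chromosome, 24 of the 72 genes (33.3%) lay on chromosome 1, which holds 26.4% of the genes tested, and 9 (12.5%) on chromosome 5, which holds 23.3%. Chromosomes 2, 3 and 4 held 9, 17 and 13 genes.

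Genes with the most similar course over the 12 sorbitol arrays were sought for 5 members by Pearson correlation, as a description, since these arrays share slides and 2 levels are enough to give a high value. AT2G21430 was most like UBC31, itself a member (r = 0.998), AT1G55546 (0.998) and AT1G20925 (0.997). UBQ12 was most like PORA, a protochlorophyllide reductase (0.999), AOX1B, another alternative oxidase (0.998), and CYP72A9 (0.997), and PORA and CYP72A9 were 3.03 and 2.42 higher on S2 than on S6. All 3 met the rise of 1 at 125 mM NaCl but not the band at the lower doses, and AOX1B was not well above background on ATS media or on S6. AOX1C was most like AT1G51820 (0.994), the member PLDALPHA2 (0.989) and AT4G19760 (0.987). ATPXG2 was most like THI2.1, a thionin gene of the jasmonate response (0.983), which like it was well above background on 125 mM NaCl and 200 mM sorbitol and not on ATS media or the other sorbitol doses. The nearest to GAPC1 was AT5G20600 (0.952), which was -0.0564 on 125 mM NaCl.

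At the threshold, the members just inside were AT3G59120 (1.00), AT4G18596 (1.01) and AT4G15885 (1.02 above ATS media on 125 mM NaCl), and the genes just outside were AT1G02350 (0.99), AT3G55860 (0.96) and AT2G11005 (0.93). On 100 mM sorbitol the 3 inside were 0.74, 0.49 and 1.11 higher than on ATS media, and the 3 outside 0.93, 0.91 and 0.83. In 7 members a difference at 50, 75 or 100 mM NaCl lay within 0.02 of the edge of the band. On 125 mM NaCl 67 of the 72 genes stood well above background on each of the 3 arrays and 3 on none, and on ATS media 48 did so on each and 20 on none.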

How the data were processed

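The authors grew the seedlings, labelled total RNA with Cy3 and scanned 27 single-colour arrays, and per the labels the spots were read with Agilent Feature Extraction 10.7. They deposited intensities for each array (processed signal, median signal and median background) with other 0/1 flags for signals well above background, saturated or outlying, and a table of intensity values for the series. The deposited intensity table equals the quantile normalization of the processed signal to within 4.8e-08 percent, on a linear scale with a median of 778.494 in each column. All values used here are log2 of that table. Quantile normalization gives every array the same distribution, so a shift of all genes would not be seen. For arrays, depth is not a count, and their number limits the precision.

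Of 43803 spots that are not controls (43603 probe names), 34369 were matched to 1 gene through the RefSeq accessions of assembly TAIR10.1, giving 25383 genes with a probe, 6919 of them with more than 1. The probe with the highest mean stands for a gene, spots of a probe were averaged, and 3874 genes well above background on all 3 arrays of no group were left out, leaving 21509. Slides come from the array identifiers. The symbol RAB18 names 2 loci and was taken as AT5G66400.

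A model with 1 mean for each of the 9 groups was fitted to the 27 arrays with limma 3.58.1 under R 4.3.3, with 18 residual and 1.63 prior degrees of freedom, with two-sided p and Benjamini-Hochberg adjustment per comparison over the genes tested, called under 0.01, the threshold of the methods. The comparison of slides S2 and S6 fitted dose and slide to 6 arrays (3 residual and 1.69 prior degrees of freedom). The exact Mann-Whitney test was run as in the methods, without their z-scores and absolute values, which discard direction. The tests were also run on simulated data with independent noise on each array and a slide effect only in the genes given one. That run does not cover the confounding of slide and group. Python 3.11.15 with pandas 2.3.3, numpy 2.4.6, scipy 1.17.1 and matplotlib 3.10.9 did the rest.

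The members, lists and tests were chosen with earlier results of these data known. Of the 563 list symbols 527 matched the annotation. Genes named are the 30 largest differences on 125 mM NaCl where a sentence gives them, members of a list or family, the 5 largest and smallest called changes on 250 mM sorbitol against ATS media and against 100 mM sorbitol, those at the threshold, neighbours and the 3 genes most like each of 5 members. Others were chosen after their values were seen, for their annotated role or for the comparison on shared slides. Alternatives were the scanner signal with 530 outlier spot values masked, 75th percentile scaling, normexp (offset 50, on the median signal), the mean of all probes, no filter on dim probes, other thresholds, leaving out each array, replicate and slide blocks, and fits of only the 2 groups compared. Replicate numbers did not pair the arrays, since deviations of same-numbered arrays correlated between -0.0715 and 0.102. The promoter motif search was not run, as no sequences were used here.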

Additional observations from a re-analysis of the deposited data

How the results depend on the processing

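Against ATS media the slide cannot be told apart from 125 mM NaCl or from any sorbitol dose. Most of the 72 genes rest on 1 probe, and each group has 3 arrays. In the comparisons below the 72 genes were held fixed, except where the count of genes that meet the rule is given. That count was 154 with a band of 0.5, 35 with a rise of 1.5, 48 with a signal well above background required on all ATS and 125 mM NaCl arrays, 71 with outlier spots masked, 63 with 75th percentile scaling, 77 with normexp, 70 with the mean of all probes and 97 with no filter, and 67 to 80 without 1 array. Of the 72 genes 46 met the rule again with 75th percentile scaling, 42 with normexp and 59 with the mean of all probes.

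With 75th percentile scaling 4 genes fell on 150 mM sorbitol, and on 200 mM 5 rose and 1 fell, while 1 was higher on 250 than on 100 mM sorbitol. With normexp 5 rose on 200 mM, 2 were higher on 250 than on 100 mM, and 0 lay below ATS media on all sorbitol arrays. With the mean of all probes 2 fell on 100 mM sorbitol and 7 were lower on 250 than on 100 mM. With the slide as a random block (correlation 0.5145) 21 rose on 150 mM and 1 was lower on 250 than on 100 mM. At an adjusted p under 0.05, 13 rose on 150 mM, 13 on 200 mM, and 1 was lower on S2 than on S6. With only the 2 groups compared in the fit, added after seeing the data, 3 rose on 150 mM, 3 on 200 mM, and 15 were higher and 8 lower on 250 than on 100 mM. With the replicate block, where the numbers pair no arrays, 57 rose on 100 mM, 7 on 150 mM and 61 on 250 mM sorbitol, all within 1.5 times the counts without it.

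Leaving out 1 array gave 43 to 48 rises on 100 mM sorbitol, 3 to 10 rises and 2 to 3 falls on 150 mM, 4 to 10 rises on 200 mM and 52 to 55 rises on 250 mM. It gave 2 to 3 genes higher and 2 to 3 lower on 250 than on 100 mM, 17 to 42 higher on S2 than on S6, and 8 to 13 above ATS media on all sorbitol arrays. The median of 125 mM NaCl minus 100 mM sorbitol was 0.103 to 0.161, and that of 125 mM NaCl minus 250 mM sorbitol -0.024 to 0.081. The alternatives for S2 against S6 were added after seeing the data. The causes were not tested.

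For 48 named genes on 250 mM sorbitol against ATS media, 634 of 672 fits kept direction and side of the threshold, and 34 genes did so in every fit run. The direction turned for AT1G34150, a change that was not called, from -0.032 to 0.003 with normexp. Without 1 array it ran from -0.127 to 0.038, and it was above 0 without the first (0.003) or the third (0.001) ATS array and without the third 250 mM sorbitol array (0.038).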
